A study of Homo sapiens with 29 samples.

Results

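The genes described here were CCN1, CCN2, THBS1, F3, CRIM1, TGM2, ANKRD1, AJUBA, AMOTL1 and AMOTL2, 10 genes known as transcriptional targets of YAP. They were chosen by name with their changes under erlotinib and AF154 already known from these libraries, so those changes are given as a description, and calls of the 10 genes are counted only to set them beside the share of all genes called. The authors deposited transcript abundances in TPM (a unit scaled for transcript length and to the same total in every library), and these were summed into 35579 genes of GENCODE release 29. All 10 were among the 9085 genes whose mean over the 29 libraries reached 10 TPM, here called all genes. Changes are differences of log2(TPM + 1), a scale that understates the change of a low gene. The number of reads behind a TPM is unknown, so error is given as the SD between lines.

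The libraries came from 10 lines of PC9, a human EGFR-mutant lung adenocarcinoma cell line. PAR is the parental line and KO its AXL knockout, made with a guide against the kinase domain. The other 8 lines are KO cells that received AXL by lentivirus, either wild type (WT), kinase-dead (KD) or with tyrosine replaced by phenylalanine at 1 site (Y634F, Y643F, Y698F, Y726F, Y750F and Y821F). They were sorted on GFP as populations and carried less receptor at the surface than PAR but more in total. The paper states that these lines still held cells without AXL, and its supplement puts the cells that expressed it at a minority. The lines were sequenced untreated, with 1 μM erlotinib for 24 h (E, an EGFR kinase inhibitor), and with erlotinib and 300 ng/mL AF154, an antibody that activates AXL (EA). There were 10 untreated libraries, 10 with E and 9 with EA, and KO with EA was not analysed here. A line under a given treatment is 1 library, so the lines stand in as replicates, and since 9 of them are or descend from KO cells, PAR was the only line of another background. Nothing in the labels gives a batch. The 8 lines other than KO and KD are called competent lines, although the transduced ones among them were such mixtures of cells with and without AXL.

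YAP and its paralogue TAZ are coactivators that the Hippo kinases LATS1 and LATS2 phosphorylate and keep out of the nucleus. In the nucleus they bind the TEAD transcription factors, often beside AP-1, and switch on genes for matrix proteins, cytoskeletal regulators and the pathway's own inhibitors. CCN1, CCN2 and ANKRD1 are the targets most often read as a measure of YAP activity, while AMOTL1, AMOTL2 and AJUBA encode proteins that act back on YAP or LATS.

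The labels were checked before the genes were described. KO had the least AXL, 92.4 TPM before treatment and 79.3 TPM under E, and the other 27 libraries lay between 217 and 852 TPM. The epithelial genes EPCAM, KRT8, KRT18, KRT19 and CDH1 were present in every library, the lowest value being 60.8 TPM for CDH1 in untreated Y750F. Of 6 genes that mark other cell types, PTPRC, COL1A2 and DCN stayed at or under 1.99 TPM and PECAM1 at or under 9.60 TPM. CD68 and COL1A1 were the most abundant of them, with untreated means of 55.1 ± 9.61 and 25.0 ± 5.46 TPM (SD, n = 10). CD68 was lower with E (33.5 ± 5.44 TPM) and COL1A1 higher (51.5 ± 7.39 TPM). The summed level of the 6 genes lay between 65.0 and 98.1 TPM untreated, between 81.1 and 96.7 TPM with E and between 76.5 and 107 TPM with EA. Their part in the results was not tested.

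The TEAD proteins that carry YAP to DNA bind the letters CATTCC, so the promoters of the genes are shown here as sequence. RefSeq promoters on GRCh38.p14 were found for 7 of the 10 genes, 9 promoters in all, and not for CCN1, CRIM1 and TGM2. The 250 bases before the start were searched on both strands for CATTCC, which reads GGAATG on the other strand, for the AP-1 letters TGANTCA and for the CArG box of SRF. Of 35093 RefSeq promoters, 11.9% held the TEAD letters, 6.57% the AP-1 letters and 1.16% a CArG box. Of the 9 promoters searched, 5 held a TEAD match, 2 an AP-1 match and 0 a CArG match, and no match overlapped another. The TEAD matches were in the promoters of CCN2, THBS1 and ANKRD1 and in 1 of 2 promoters each of AJUBA and AMOTL2, and the AP-1 matches in those of F3 and ANKRD1. The 4 printed below are the genes with the most matches and THBS1, with matches in capitals. CCN2 lies on the minus strand (chr6:131951373-131951622) and its matches began 169, 104 and 95 bases before the start. THBS1 lies on the plus strand (chr15:39580829-39581078), with its match at 46 bases. ANKRD1 (minus strand, chr10:90921088-90921337) had TEAD matches at 220 and 128 bases and an AP-1 match at 195. F3 (minus strand, chr1:94541760-94542009) had AP-1 matches at 223 and 210 bases and no TEAD match. A match is a run of letters, and no binding was measured in this series.
CCN2: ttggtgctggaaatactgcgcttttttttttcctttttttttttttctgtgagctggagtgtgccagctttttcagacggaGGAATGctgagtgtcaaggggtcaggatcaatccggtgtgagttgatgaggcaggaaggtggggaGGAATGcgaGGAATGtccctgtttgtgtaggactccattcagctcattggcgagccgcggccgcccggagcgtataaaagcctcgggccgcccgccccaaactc
THBS1: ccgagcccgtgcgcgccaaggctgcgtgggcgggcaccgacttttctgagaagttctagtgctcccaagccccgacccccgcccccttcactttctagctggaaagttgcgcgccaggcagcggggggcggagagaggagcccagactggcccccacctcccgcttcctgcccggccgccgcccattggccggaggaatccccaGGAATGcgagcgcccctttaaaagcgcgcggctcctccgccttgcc
ANKRD1: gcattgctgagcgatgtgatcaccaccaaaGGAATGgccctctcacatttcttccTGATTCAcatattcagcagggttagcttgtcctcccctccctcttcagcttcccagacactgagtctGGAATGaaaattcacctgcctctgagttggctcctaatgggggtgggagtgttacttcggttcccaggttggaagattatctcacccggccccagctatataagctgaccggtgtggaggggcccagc
F3: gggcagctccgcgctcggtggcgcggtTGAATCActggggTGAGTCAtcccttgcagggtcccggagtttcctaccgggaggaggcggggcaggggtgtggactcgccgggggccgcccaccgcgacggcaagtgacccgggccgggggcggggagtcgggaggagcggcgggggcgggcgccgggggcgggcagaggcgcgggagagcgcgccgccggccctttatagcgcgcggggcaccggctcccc

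By level, untreated cells had most TGM2 (704 ± 45.2 TPM, SD, n = 10), followed by F3 (402 ± 18.8 TPM), THBS1 (293 ± 31.0 TPM), CCN1 (93.2 ± 7.59 TPM) and AMOTL2 (52.0 ± 5.39 TPM). The ranges of neighbours in this order did not overlap. Below them came CRIM1 (44.9 ± 3.75 TPM), AMOTL1 (37.0 ± 2.16 TPM), AJUBA (29.5 ± 3.82 TPM), ANKRD1 (24.3 ± 4.58 TPM) and CCN2 (11.9 ± 1.77 TPM). From AMOTL2 downward the ranges of neighbours overlapped, although the higher gene of each pair was above the next in at least 9 of the 10 lines. With E the order changed at the top, where THBS1 stood first at 552 ± 92.4 TPM, and TGM2 dropped to the seventh place at 60.5 ± 17.3 TPM, not separated from AJUBA or CRIM1 beyond the spread between lines. CCN2 had the lowest mean of the 10 genes under each treatment, although ANKRD1 was above it in only 7 of 10 lines with E and 7 of 9 with EA.

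**Figure D1:**
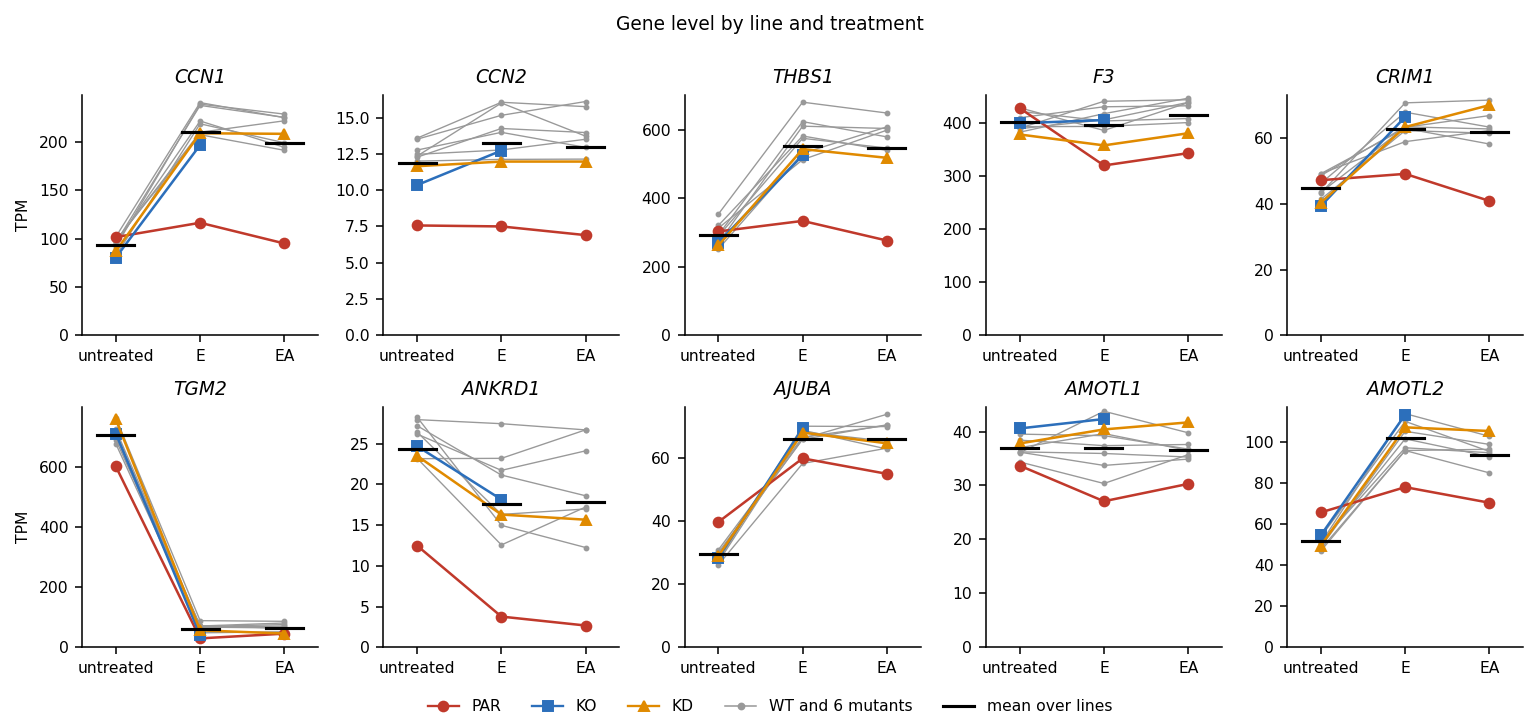
Level of each gene in TPM (vertical axes, starting at 0) in the 29 libraries, untreated, with E and with EA. Points joined by lines are cell lines, with PAR in red, KO in blue, KD in orange and the other lines in grey, and black bars are means over the lines sequenced; PAR leaves the band of the other lines in most panels, and TGM2 falls from 601 TPM or more to 88.2 TPM or less.

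The genes parted into 3 groups under E. CCN1, THBS1, CRIM1, AJUBA and AMOTL2 were higher in all 10 lines, TGM2 was lower in all 10 and ANKRD1 in 9, and CCN2, F3 and AMOTL1 moved little on average. The mean changes ran from -3.58 for TGM2 to 1.14 for CCN1 and AJUBA. In the fit across all genes (limma, line as block) 8 of the 10 were called, 6 higher and 2 lower, beside 79.0% of all 9085 genes, 36.4% higher and 42.6% lower. Because the genes were selected on this contrast, nothing is read from that count. The call of CCN2 was lost with quantile normalization, without the line block and when KO, Y634F, Y698F, Y750F or Y821F was left out.

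Among the secreted products, CCN1 encodes a matricellular protein that binds integrins (ENSG00000142871, chr1:85580761-85583962, plus strand, GRCh38). Its untreated level lay between 80.5 TPM (KO) and 102 TPM (Y634F), with a median of 95.6 TPM. With E it lay between 117 TPM (PAR) and 241 TPM (Y634F), with a median of 215 TPM, so the treatments did not overlap. The change within lines averaged 1.14 ± 0.35 (SD, n = 10). It was 0.20 in PAR and between 1.08 and 1.40 in the 9 KO-derived lines, where it averaged 1.25 ± 0.11 (SD, n = 9), or 2.37-fold.

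THBS1 encodes thrombospondin 1, a matrix glycoprotein that can release TGF-beta from its latent form (ENSG00000137801, chr15:39581079-39599466, plus strand). Untreated values ran from 252 TPM (Y821F) to 354 TPM (Y634F), with a median of 291 TPM, and values with E from 334 TPM (PAR) to 681 TPM (Y634F), with a median of 559 TPM. Only the PAR library with E reached into the untreated range. The change averaged 0.90 ± 0.30 (SD, n = 10), with 0.14 in PAR and between 0.71 (Y643F) and 1.18 (Y750F) in the other lines. THBS1 therefore followed CCN1 both in the size of its change and in the line that stood apart.

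CCN2 encodes another matricellular protein, related to CCN1 and known from fibrosis (ENSG00000118523, chr6:131948176-131951373, minus strand). In the size of its change it did not follow CCN1. Untreated values lay between 7.57 TPM (PAR) and 13.6 TPM (Y634F), with a median of 12.3 TPM, and values with E reached 16.1 TPM (Y634F), again lowest in PAR, with a median of 13.4 TPM. The treatments overlapped through most of their range. The change averaged 0.14 ± 0.12 (SD, n = 10), higher in 9 lines, from -0.01 in PAR to 0.35 in Y698F. The mean TPM with E was 1.12 times the untreated mean, against 2.25 times for CCN1.

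Among the products at the cell surface, F3 encodes tissue factor, the receptor that starts coagulation (ENSG00000117525, chr1:94529225-94541800, minus strand). Its untreated values lay between 378 TPM (KD) and 428 TPM (WT), with a median of 396 TPM, and its values with E between 320 TPM (PAR) and 441 TPM (Y821F), with a median of 404 TPM. The treatments overlapped, and the lines did not share a direction. The change averaged -0.03 ± 0.17 (SD, n = 10), higher in 6 lines, with -0.42 in PAR and between -0.15 and 0.18 in the other 9. CRIM1 encodes a transmembrane protein that binds BMP ligands (ENSG00000150938, chr2:36355926-36551135, plus strand). It lay between 39.4 TPM (KO) and 49.3 TPM (Y634F) untreated, with a median of 44.9 TPM, and between 49.2 TPM (PAR) and 70.8 TPM (Y821F) with E, with a median of 63.4 TPM. The E library of PAR was again the only one inside the untreated range. Its change averaged 0.48 ± 0.21 (SD, n = 10), from 0.06 in PAR to 0.74 in KO.

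TGM2, the gene of tissue transglutaminase, a protein crosslinking enzyme (ENSG00000198959, chr20:38127387-38166578, minus strand), went furthest, and downward. Untreated it lay between 601 TPM (PAR) and 763 TPM (Y634F), with a median of 709 TPM. With E it lay between 29.3 TPM (PAR) and 88.2 TPM (Y634F), with a median of 66.8 TPM, far below every untreated library. The change averaged -3.58 ± 0.40 (SD, n = 10), from -4.31 in PAR to -3.10 in Y634F, and the untreated mean was 11.6 times the mean with E. Only 2 of the 9085 genes had a lower mean change. PAR and KO lost most TGM2 and had the lowest levels with E (29.3 and 40.1 TPM), and the 8 transduced lines kept between 47.7 and 88.2 TPM. In RNA from whole dishes, fewer cells with a transcript and less transcript per cell cannot be told apart.

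ANKRD1 encodes an ankyrin repeat protein of nucleus and sarcomere that is often used as a reporter of YAP (ENSG00000148677, chr10:90912096-90921276, minus strand). Untreated it was 12.5 TPM in PAR and between 23.2 and 28.3 TPM in the other 9 lines. With E it was 3.76 TPM in PAR and ran from 12.6 TPM (Y821F) to 27.5 TPM (Y634F) in the others, with a median of 17.2 TPM over all 10. The change averaged -0.54 ± 0.45 (SD, n = 10), the widest spread between lines of the 10 genes. Without PAR the SD was 0.32, beside 0.33 for TGM2. The change of ANKRD1 was -1.50 in PAR, -0.87 in WT, -0.84 in Y821F and -0.66 in Y726F. Y634F (-0.03) and Y643F (0.00) held their untreated level.

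The last 3 genes encode proteins that bind LATS kinases or YAP itself. AJUBA, a LIM-domain adaptor that holds LATS inactive at junctions (ENSG00000129474, chr14:22971174-22982642, minus strand), was 39.6 TPM in untreated PAR and at most 30.8 TPM in the other untreated libraries, with a median of 28.6 TPM over all 10. With E it lay between 58.1 TPM (WT) and 69.9 TPM (Y821F), with a median of 67.2 TPM, and the treatments did not overlap. The change averaged 1.14 ± 0.21 (SD, n = 10), with 0.58 in PAR and between 1.08 and 1.32 in the others. AJUBA was the only gene of the 10 for which the PAR library with E lay inside the range of the other lines.

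AMOTL2 and AMOTL1 are paralogues in the angiomotin family, which binds YAP at junctions and on actin. AMOTL2 (ENSG00000114019, chr3:134355874-134375479, minus strand) was 65.7 TPM in untreated PAR and between 47.0 and 54.6 TPM in the other untreated libraries. With E it was 78.0 TPM in PAR and between 95.9 and 114 TPM in the others, above every untreated library. The change averaged 0.96 ± 0.26 (SD, n = 10), with 0.24 in PAR and 1.04 ± 0.07 in the other 9. AMOTL1 (ENSG00000166025, chr11:94706431-94876753, plus strand) had the same mean in both treatments, 37.0 ± 2.16 TPM untreated and 37.0 ± 5.29 TPM with E. Its change averaged -0.01 ± 0.16 (SD, n = 10), higher in 4 lines, from -0.31 in PAR to 0.27 in Y821F. The paralogues thus parted with E, AMOTL2 being higher and AMOTL1 level on average.

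**Figure D2:**
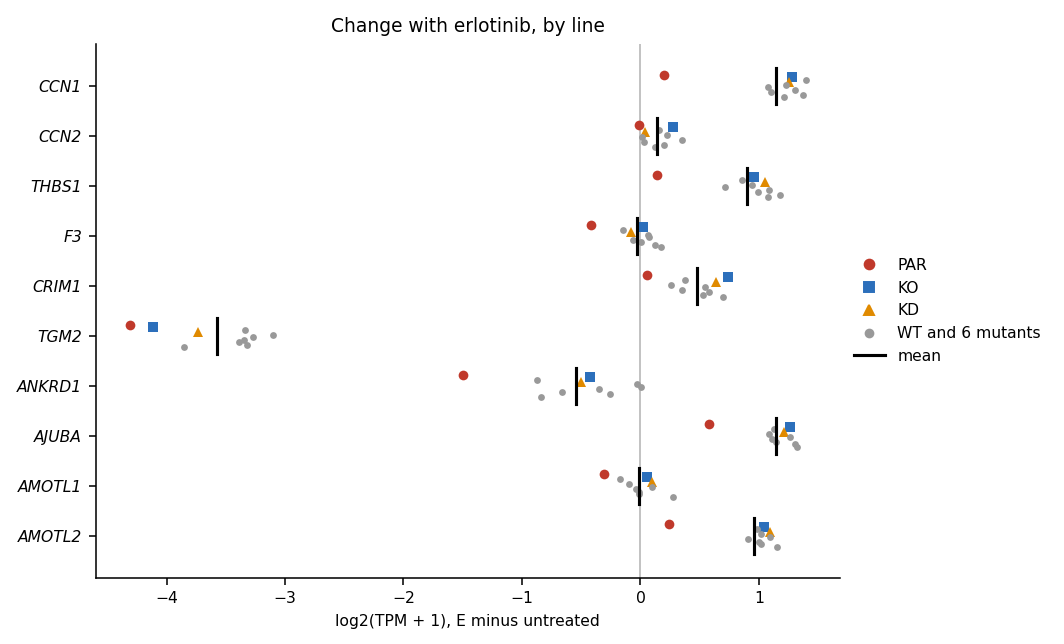
Change with E of each gene in each of the 10 lines, as the difference in log2(TPM + 1) from the untreated library of the same line (horizontal axis). Black bars are means of the 10 lines; PAR (red) lies lowest for each gene, from -4.31 for TGM2 to 0.58 for AJUBA.

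PAR was the line that stood apart. Its change with E was lower than in any of the other 9 lines for all 10 genes, where 42.5% of all genes had PAR outside the range of the others on either side. CCN1, THBS1, CRIM1 and AMOTL2 changed by at most 0.24 in PAR and by at least 0.26 in every other line. In levels, PAR lay outside the others for 6 of the 10 genes untreated (background 53.8%), for 9 of 10 with E (53.2%) and for 10 of 10 with EA (52.0%). In the untreated libraries PAR was the lowest for CCN2, TGM2, ANKRD1 and AMOTL1 and the highest for AJUBA and AMOTL2. With EA it was the lowest for all 10. PAR is 1 library per treatment and was the only line not derived from KO, so line history, receptor expression and the single library cannot be told apart. The median change of all 9085 genes with E was -0.16 in PAR and between -0.06 and 0.02 in the other lines.

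YAP1 itself stood apart in the same line. It was 63.1 TPM untreated, 60.6 TPM with E and 59.7 TPM with EA in PAR, and at least 86.9 TPM in every library of the other lines. WWTR1, the gene of TAZ, did not, with 53.7 TPM in untreated PAR against 52.7 to 64.3 TPM in the others. Of the other YAP/TAZ targets named further below, not all had PAR apart in their change with E. The PAR change was within the range of the other lines for IGFBP3, GADD45A, MYOF, TGFB2, ARHGEF17, NT5E, FJX1 and ASAP1. It was below that range for LATS2, PTPN14, DOCK5 and EDN1. The part of the YAP1 level in the PAR values was not tested.

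KO cells, which share the history of the transduced lines and lack the receptor, were outside the range of the 8 transduced lines for 5 of the 10 genes untreated, where the background was 22.6%. CCN1 (80.5 against at least 82.5 TPM), CCN2 (10.4 against at least 11.7 TPM) and CRIM1 (39.4 against at least 40.4 TPM) were lower in KO. AMOTL1 (40.6 against at most 39.5 TPM) and AMOTL2 (54.6 against at most 53.8 TPM) were higher. Each gap was smaller than the range of the transduced lines. With E, KO was outside for 2 genes, beside 25.8% of all genes, and in both it was lower: CCN1 at 197 TPM against at least 208 TPM and TGM2 at 40.1 TPM against at least 47.7 TPM. The change with E in KO was within the range of the transduced lines for CCN1, THBS1, AJUBA and AMOTL2, the genes with the largest positive changes. It was outside for CRIM1, at 0.74 against at most 0.70, and for TGM2, at -4.11 against at least -3.85.

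Among transduced lines, Y634F was the highest for several genes at once. It had the highest CCN1, THBS1 and TGM2 of the 10 lines both untreated and with E, and the highest CCN2. Y821F with E had the highest F3, CRIM1, AJUBA, AMOTL1 and AMOTL2 and the lowest ANKRD1 and TGM2 of the transduced lines. For TGM2, ANKRD1 and CRIM1 these 2 lines were the ends of the transduced lines' range with E. There was 1 library for each, so the differences between them have no replicate error.

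When AF154 was added to erlotinib, the mean changes over the 8 competent lines lay between -0.11 (AMOTL2 and CCN1) and 0.10 (TGM2), where those with E over 10 lines had run from -3.58 to 1.14. F3 and AMOTL1 changed little on average in either comparison. With AF154, the median of the 10 was -0.02, beside 0.02 for all genes. By limma with Benjamini-Hochberg adjustment 0 of the 10 were called, beside 2.36% of all genes. At an unadjusted p under 0.05 there were 3, beside 20.9% of all genes. These counts come from a contrast the genes were selected on, and nothing is read from them.

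F3 alone of the 10 had a direction that the 8 competent lines shared, beside 5.51% of all genes. It was higher with EA by 0.07 ± 0.06 (SD, n = 8), from 0.01 in Y643F to 0.18 in WT, and by 0.09 in KD. Its level with EA lay between 343 TPM (PAR) and 446 TPM (Y750F), with a median of 432 TPM over 9 lines, and overlapped the range with E. CCN1 was lower in 7 of 8, with a mean change of -0.11 ± 0.11 (SD, n = 8), from -0.29 in PAR to 0.08 in Y726F. Its values with EA lay between 95.1 TPM (PAR) and 229 TPM (Y750F). AMOTL2 was lower in 7 of 8 as well, with a mean change of -0.11 ± 0.07, from -0.20 in Y634F to 0.01 in Y750F. For AMOTL2 PAR changed like the others, by -0.15. The spread between lines was as large as the mean change for CCN1 and smaller than it for AMOTL2.

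The other 7 genes had no shared direction with AF154. ANKRD1 was higher in 4 of 8 lines and had the widest spread (-0.01 ± 0.27, SD, n = 8), from -0.38 in PAR and -0.27 in WT to 0.43 in Y821F. TGM2 was higher in 5 (0.10 ± 0.23), and its mean rested on PAR, where it was higher by 0.60 (29.3 to 45.0 TPM), since the other 7 lines averaged 0.03 ± 0.12. THBS1 was higher in 2 (-0.03 ± 0.16), with 0.22 in Y643F and 0.20 in Y821F against -0.27 in PAR. CCN2 (-0.04 ± 0.10) and CRIM1 (-0.04 ± 0.11) were higher in 3 lines, and AJUBA (0.02 ± 0.11) and AMOTL1 (0.01 ± 0.13) in 4. For each of these the SD between lines exceeded the mean change.

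PAR was outside the range of the other 7 competent lines in its change with AF154 for 5 of the 10 genes, beside 32.7% of all genes. It was the lowest for CCN1, THBS1, CRIM1 and ANKRD1 and the highest for TGM2. KD, whose receptor cannot signal through its kinase, was outside the range of the 8 competent lines for 2 genes, beside 19.0%. These were CRIM1, higher by 0.14, and TGM2, which changed by -0.30. For the other 8 genes the change in KD fell within the range of lines with an active kinase. KD gave 1 pair of libraries.

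**Figure D3:**
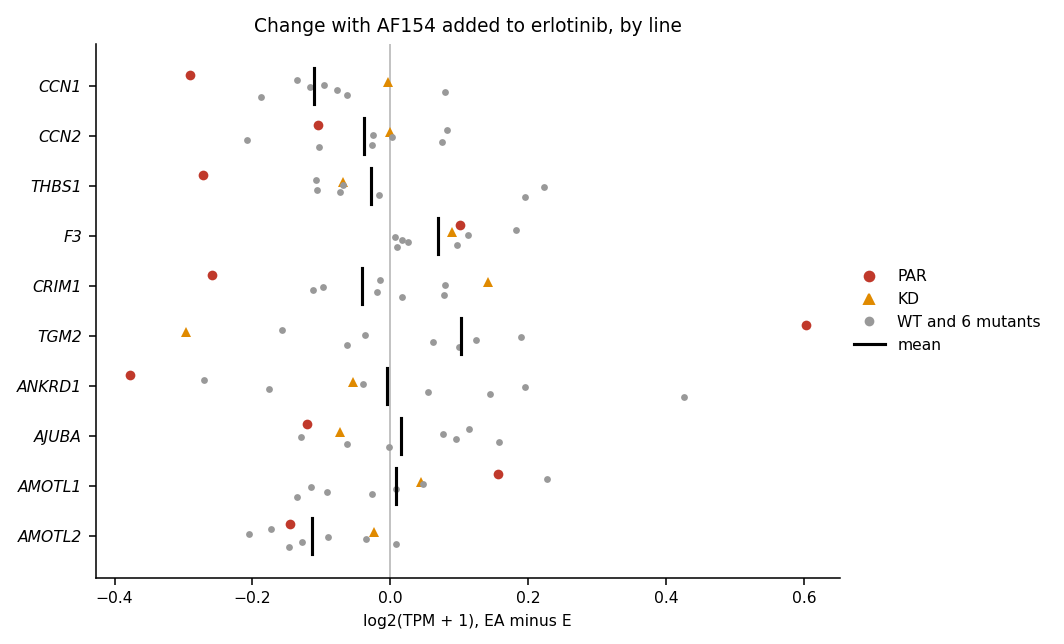
Change of each gene when AF154 was added to erlotinib, as the difference in log2(TPM + 1) from the E library of the same line (horizontal axis), with PAR in red, KD in orange and WT and the 6 mutants in grey. Black bars are means of the 8 competent lines, without KD; F3 lies right of 0 in each line, and TGM2 in PAR (0.60) lies far right of the others.

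EA was also set beside untreated cells in the 8 competent lines, a comparison that shares its libraries with those above. Limma called 70.6% of all genes between EA and untreated. The mean of CCN1 was 2.07 times the untreated mean, and AJUBA changed by 1.13 ± 0.28, THBS1 by 0.84 ± 0.43, AMOTL2 by 0.81 ± 0.30 and CRIM1 by 0.38 ± 0.28 (SD, n = 8). ANKRD1 changed by -0.57 ± 0.67 and TGM2 by -3.39 ± 0.25. CCN2 (0.10 ± 0.12), F3 (0.04 ± 0.17) and AMOTL1 (-0.02 ± 0.09) had means smaller than their SD between lines. In PAR, EA left CCN1 (-0.10), THBS1 (-0.13), CRIM1 (-0.20) and CCN2 (-0.12) under their untreated level, where each of the other 7 competent lines and KD was above it. F3 in PAR changed by -0.32.

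How alike the genes were depended on whether treatment and PAR were in the comparison. Over the 29 libraries, log2 levels of CCN1 and THBS1 had a Pearson's r of 0.97, AJUBA and AMOTL2 0.97, and CCN1 and AMOTL2 0.94, while TGM2 had -0.95 with AJUBA and -0.81 with CCN1. All of these hold the treatment difference in common. With the mean of each treatment taken off, 29 of the 45 pairs had an r above 0.5 and none had one below -0.5, with a median of 0.59. Without PAR as well (26 libraries), 7 pairs were above 0.5 and 3 below -0.5, and the median was 0.08. The likeness of the 10 genes across lines thus rested on the PAR libraries. Among pairs that stayed alike without PAR were AMOTL1 and AMOTL2 (0.62), TGM2 and ANKRD1 (0.59), CCN1 and CCN2 (0.56) and CCN2 and THBS1 (0.56), whereas AMOTL1 ran against TGM2 (-0.68) and CCN2 (-0.66). The points share libraries, a fixed TPM total and a common KO parent, so these values describe the lines at hand.

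**Figure D4:**
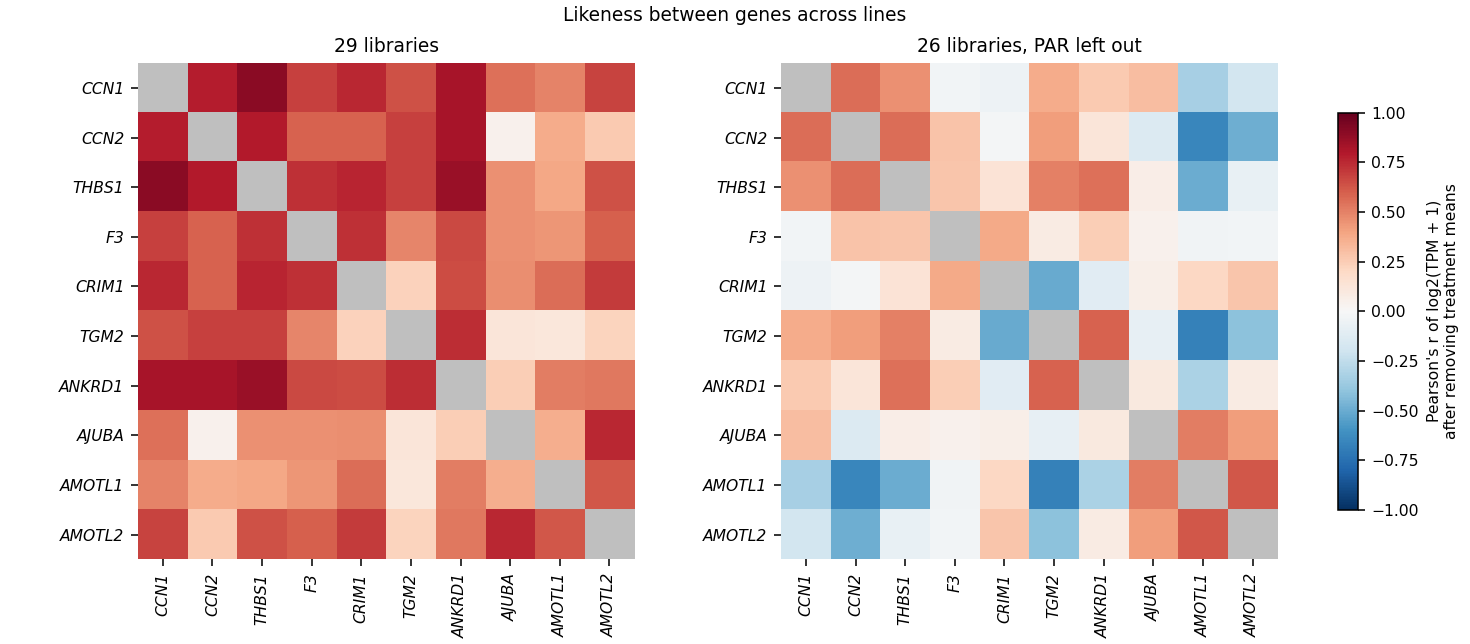
Pearson's r of log2(TPM + 1) between pairs of the 10 genes after the mean of each treatment was taken off, over 29 libraries (left) and over the 26 libraries without PAR (right). Red is positive and blue negative, the diagonal is grey, and the median over 45 pairs goes from 0.59 to 0.08 when PAR is left out.

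The changes with E gave the same picture. Over 10 lines 32 of the 45 pairs had an r above 0.5, with a median of 0.66, and over the 9 lines without PAR 10 pairs, with a median of -0.06. CRIM1 and TGM2 then ran in opposite directions (-0.85), and AMOTL1 and AMOTL2 together (0.80). Over the changes with AF154 in 8 lines the median was 0.05, with ANKRD1 and THBS1 the most alike (0.89) and ANKRD1 and AMOTL1 opposed (-0.88). Over the 7 lines without PAR, F3 and AMOTL1 were the most alike (0.90), and ANKRD1 and THBS1 had 0.84.

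Among all genes with a symbol, the nearest to each of the 10 were found over 29 libraries with treatment means taken off. CCN2 was most like EDN1 (r = 0.94), the gene of endothelin 1, followed by AKAP12 and TP53I3. ANKRD1 was most like ITGA2 (0.95), an integrin subunit that binds collagen, followed by ADAMTS12 and GPR176. TGM2 was most like FOSL1 (0.88), an AP-1 gene under ERK, followed by ADAMTS15 and ICAM2. Without PAR, TGM2 and FOSL1 kept an r of 0.84 and ANKRD1 and ITGA2 one of 0.77, and CCN2 and EDN1 fell to 0.67. CCN1 was nearest to MFGE8, CTPS1 and RHBDF2 (0.91 to 0.93, and 0.43 to 0.69 without PAR), and THBS1 to AFAP1L2, CCN1 and CCND1 (0.89 to 0.91, and 0.46 to 0.72 without PAR, lowest with CCN1). F3 was nearest to HDAC2, ATP13A3 and PUM2 (0.83 to 0.85, and 0.54 to 0.68 without PAR) and CRIM1 to UGCG, CTDSP2 and FRAS1 (0.85 to 0.88, and 0.50 to 0.60 without PAR). AJUBA was near ZBTB25 and STEAP1B (0.80 and 0.79, and 0.52 and 0.56 without PAR). AMOTL1 was nearest to ZBED10P, GAB2 and PHF21A (0.84 to 0.87, and 0.69 to 0.82 without PAR), and AMOTL2 to PCBP2, RNF213 and MAU2 (0.83 to 0.86, and 0.42 to 0.71 without PAR, lowest with RNF213). The ranking rested on PAR, since over the 26 libraries without it another gene was nearest for each of the 10, and 3 of the 30 nearest genes were still among the nearest (ITGA2 for ANKRD1, ZBED10P and GAB2 for AMOTL1). FOSL1 was then no longer among the 3 nearest to TGM2.

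The authors' assignment of reads to transcripts showed where a gene total hides its parts. CCN2 and ANKRD1 have 1 transcript in the table, and 96.3% of CCN1 lay in a single coding transcript. F3 was level as a gene, but its coding transcript F3-201 had a mean of 281 TPM untreated and 249 TPM with E (n = 10). Its share of the gene went from 70.0 ± 1.61% to 63.1 ± 2.85%. Its 2 processed transcripts were higher with E, at 94.3 ± 14.1 TPM against 79.7 ± 4.53 TPM and at 49.0 ± 10.7 TPM against 36.8 ± 4.98 TPM. TGM2, by contrast, kept its proportions. The coding transcript TGM2-201 held 60.0 ± 1.62% of the gene untreated and 57.3% with E, and a retained-intron transcript 34.1 ± 1.51% and 35.5 ± 3.73%, so both were lower together. Whether short transcripts were counted apart from the overlapping coding ones cannot be told from TPM.

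Other genes of the pathway were tested in the same fits, with adjustment over all 9085 genes. Their lists come from general knowledge but were drawn up with earlier results of these data known, so they are not independent of them. Of 16 other YAP/TAZ targets 13 were kept, and with E 9 rose and 4 fell, beside 36.4% and 42.6% of all genes. LATS2 (8.94 TPM untreated and 17.0 TPM with E) passed the filter on low values only through the treated libraries, so the count is a description, and with 10 TPM asked for in every library 6 rose. The median change of the 13 was 0.84, against 0.31 for the 10 genes and -0.04 for all genes. IGFBP3, a secreted binder of insulin-like growth factors, went from 216 to 1204 TPM (log2 change 2.50, SE 0.05, limma adjusted p = 4.49e-14), higher in 10 of 10 lines. TGFB2, a TGF-beta ligand, rose by 2.25 and GADD45A by 1.65. ARHGEF17, EDN1, LATS2, MYOF and PTPN14 rose on average by between 0.46 and 1.22. PTPN14 was lower in PAR (-0.29) and higher in the other 9 lines (0.31 to 0.83). NT5E, which makes adenosine outside the cell, fell by 2.34 (SE 0.07, limma adjusted p = 6.66e-13), lower in 10 of 10 lines, FJX1 fell by 1.72, DOCK5 by 0.52 and ASAP1 by 0.32. Like the 10 genes, this list thus held members in both directions.

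Of 16 genes for YAP, TAZ, the TEADs and the Hippo kinases, 14 were kept, of which 6 rose with E, 5 fell and 3 did not pass, shares close to the 36.4% higher and 42.6% lower of all genes. YAP1 was 91.7 ± 10.7 TPM untreated and 91.0 ± 11.6 TPM with E (SD, n = 10), with a change of -0.01 (SE 0.03) and a limma adjusted p of 0.729. WWTR1 fell by 0.60 (SE 0.04), from 58.0 to 38.0 TPM, lower in 10 of 10 lines. TEAD2 rose by 1.25, TEAD3 by 0.72 and TEAD1 by 0.32, TEAD4 fell by 0.59, and the TEAD cofactor VGLL4 rose by 0.72. TEAD1 was lower in PAR (-0.34) and higher in the other 9 lines (0.09 to 0.60). NF2, an upstream activator of LATS, fell by 0.68, while AMOT, the third angiomotin, rose by 0.50. The 4 TEAD genes thus did not share a direction.

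Targets of SRF and of ERK moved in opposite directions with E. All 8 kept targets of SRF and its cofactor MRTF (of 10 listed) rose, beside 36.4% of all genes, on a list drawn up with earlier results known. TAGLN, an actin-binding protein, went from 17.4 to 168 TPM (3.21, SE 0.09, limma adjusted p = 3.28e-13) and MYL9, a myosin light chain, from 20.8 to 190 TPM (3.17, SE 0.08), each higher in 10 of 10 lines. TPM1 rose by 1.44, FHL2 by 1.22 and CNN2 by 0.98. All 5 kept ERK targets (of 10 listed) fell, beside 42.6% of all genes. ETV4, ETV5 and PHLDA1 passed the filter on low values only through the untreated libraries, where they were high, so their count is given as a description. With 10 TPM asked for in every library 1 ERK target was called lower, and with a mean of 1 TPM or more all 10 were. FOSL1 fell by 3.58, from 223 to 18.3 TPM (SE 0.09, limma adjusted p = 1.34e-13), beside -3.58 for TGM2, ETV4 fell by 3.49 and PHLDA1 by 3.24, and ETV5 fell as well. CCND1, the gene of cyclin D1, fell by 0.73.

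**Figure D5:**
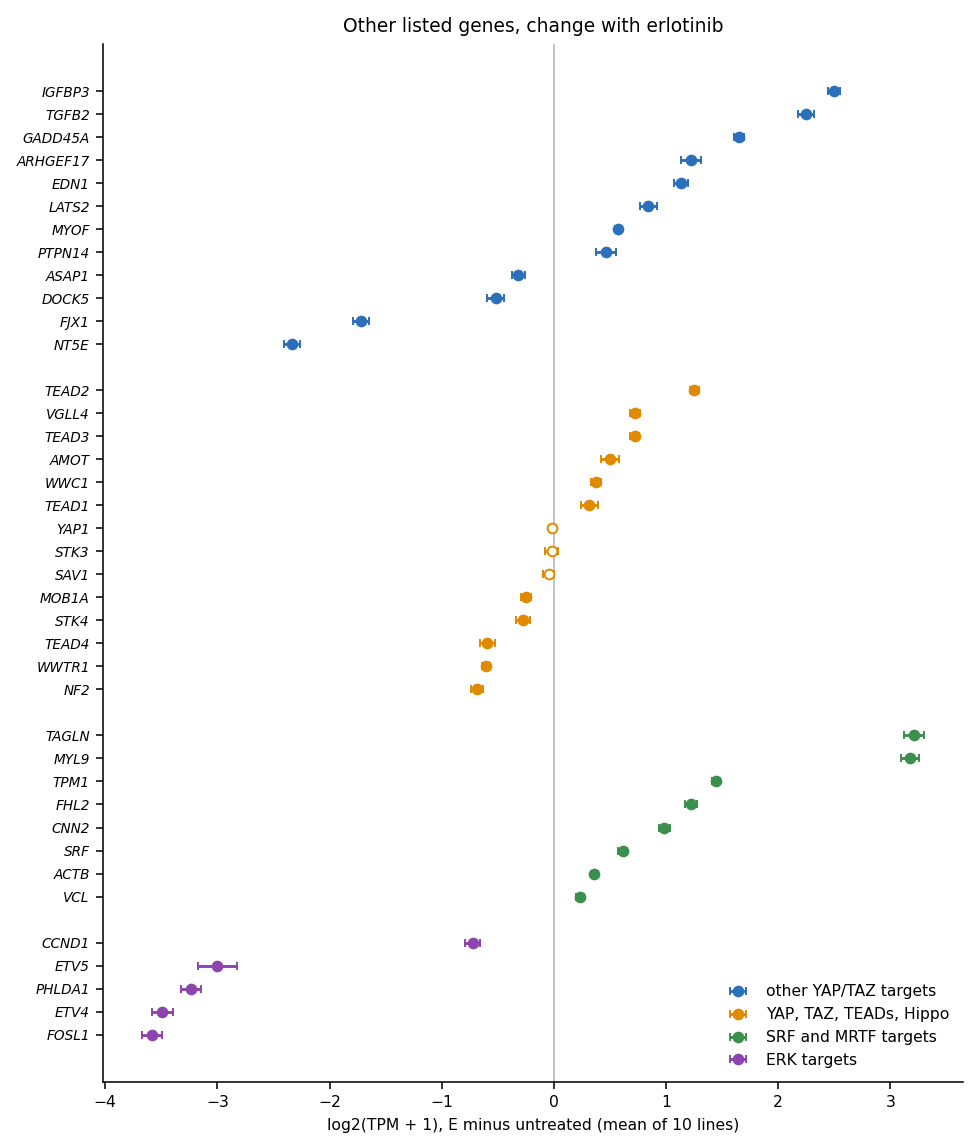
Mean change with E over 10 lines (horizontal axis, log2(TPM + 1)) of kept genes of 4 lists, with bars for the SE from limma. Filled points passed an adjusted p of 0.05 and open points did not; SRF and MRTF targets (green) lie right of 0 and ERK targets (purple) left of it, and the other YAP/TAZ targets (blue) fall on both sides.

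With AF154, 0 of the 13 other YAP/TAZ targets, 0 of the 14 pathway genes and 0 of the 5 ERK targets passed the threshold in limma, beside 2.36% of all genes, so nothing is read from these counts. At an unadjusted p under 0.05, beside 20.9% of all genes, there was 1 higher and 1 lower among the other YAP/TAZ targets. At that level 1 pathway gene and 1 ERK target were higher. Of the 8 kept SRF and MRTF targets 6 were lower and 0 higher, on a list drawn up with earlier results known. Among SRF and MRTF targets MYL9 fell by 0.27 (SE 0.06, adjusted p = 0.0371 by limma), lower in 8 of 8 competent lines and by 0.70 in PAR. Over 17 alternatives its adjusted p ran from 0.0228 to 0.712, and it passed in 8 of them. FOSL1 was higher in 8 of 8 competent lines, by 0.33 (SE 0.08), and changed by -0.65 in KD. It missed the threshold at a limma adjusted p of 0.0560, which ran from 0.0396 to 0.463. GADD45A (-0.19, limma adjusted p = 0.0962) had the lowest adjusted p of the other YAP/TAZ targets. AXL changed by -0.13, lower in 8 of 8 lines, with a limma adjusted p of 0.0593. Its change was -0.08 in PAR. In the transduced lines the gene total also holds AXL introduced by lentivirus, which was not told apart from the cells' own gene.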

How the data were processed

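Total RNA of 29 dishes was sequenced, and the authors deposited 1 TPM value per transcript and library, made with kallisto on GRCh38 according to the submitters' processing notes. A company sequenced and aligned the reads, and versions and strand handling are not given in the sources used here. TPM sums to 1000000 in every library, so depth and counting error are unknown. By identifier, 169797 of 188753 transcripts matched GENCODE release 29 and were summed by gene, which kept between 97.0% and 97.4% of a library's TPM.

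E was compared with untreated in 10 lines, and EA with E and with untreated in the 8 competent lines, using limma 3.58.1 (lmFit, eBayes with trend) in R 4.3.3 on log2(TPM + 1) of the 9085 genes with a mean of 10 TPM or more, with line as a block because the libraries of a line are the same cells, and with Benjamini-Hochberg adjustment and a threshold of 0.05. The 10 genes and all lists were chosen with earlier results of these data known. Genes named were the 10, AXL, YAP1, WWTR1, list genes past the threshold (FOSL1 and GADD45A with AF154 were chosen after their values were seen), and for each of the 10 the 3 nearest by Pearson's r. A few genes that the rule names are not reported here. Each library is a dish of its own, 1 per line and treatment, so the spread is that between lines. Tested on simulated libraries of untreated and E, in which 200 of 9085 genes carried a log2 change of 1, limma called 197 of these and 10 others. The simulated libraries had independent noise, no differences between lines and no common parent. Far fewer genes changed in them than were called in the data, and all upward. These counts therefore do not give the error rate of the fits above. The fits and the changes of the 10 genes, but not correlations, nearest genes or transcript shares, were recomputed with median centring, with quantile normalization, with other filters on low values, with a pseudocount of 0.1, with no line block, from coding transcripts only, without mitochondrial genes, with the KD pair included (EA against E only) and without each line in turn. Figures used Python 3.11.15 and matplotlib 3.10.9.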

Additional observations from a re-analysis of the deposited data

Results flagged for a closer look

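Of 50 groups of lines examined (each gene's level under each treatment and its change with E and with AF154), 16 held a line far from the others by Dixon's criterion, and it was PAR in all 16. Chance gives about 1 in 20 independent groups, but these groups share libraries, and over all 9085 genes 13.3% of such groups held a line apart and 9.43% held PAR apart. By measure, PAR stood apart for 15.5% of all genes untreated, 12.4% with E, 11.2% with EA, 6.19% in the change with E and 1.81% in the change with AF154. Levels of PAR that stood apart with E were CCN1 at 117 TPM, CCN2 at 7.502 TPM, THBS1 at 334 TPM and AMOTL2 at 78.0 TPM. With EA they were CCN1 at 95.1 TPM, CCN2 at 6.90 TPM, THBS1 at 277 TPM and CRIM1 at 40.9 TPM, and untreated they were ANKRD1 at 12.5 TPM, AJUBA at 39.6 TPM and AMOTL2 at 65.7 TPM. Its changes that stood apart were those with E of CCN1 (0.20), THBS1 (0.14), AJUBA (0.58) and AMOTL2 (0.24), and that with AF154 of TGM2 (0.60).

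PAR also moved against every other line in a few comparisons, and these differences were not tested, since PAR is 1 line. CCN2 changed by -0.011 with E in PAR and was higher in the other 9 lines. With EA against untreated, CCN1 (-0.10), CCN2 (-0.12), THBS1 (-0.13) and CRIM1 (-0.20) were lower in PAR and higher in the other lines sequenced.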

How the results depend on the processing

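Every one of the 534 recomputed changes of the 10 genes stayed within 1 SD between lines of its value above. For most of them this was fixed in advance. The filters on low values and the line block do not alter a gene's change, and leaving out 1 line cannot move a mean by 1 SD. Only the other settings could have moved a change further. No tested change of a list gene that had passed changed sign. The number of genes called between E and untreated (7175) and between EA and untreated (6418) stayed within 1.5 times of itself. The share called did not, since the filters change how many genes are tested. With no filter, 10759 of 26628 genes were called between E and untreated and 8842 of 26628 between EA and untreated, smaller shares than those above. Of the 10 genes, CCN2 between E and untreated was no longer called with quantile normalization, without the line block or without KO, Y634F, Y698F, Y750F or Y821F, and F3 was called lower (-0.18) when only coding transcripts were summed. ANKRD1 between EA and untreated was no longer called with no filter or without the line block. Asking for 10 TPM in every library removed ANKRD1 and CCN2 and left 1 of the 10 called lower.

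Between EA and E, 214 genes were called, 171 higher and 43 lower. Median centring gave 133 higher and 72 lower. The count was 67 with a mean of 1 TPM or more, 6 with no filter, 9 without the line block, 120 with the KD pair and 361 with coding transcripts only, and between 10 (without Y634F) and 188 (without Y726F) when a line was left out. It was also low without Y643F (18), PAR (55), Y698F (55), Y750F (76), Y821F (94) and WT (131). Some filters test more or fewer genes, and otherwise the cause was not tested. MYL9 was the 1 SRF and MRTF target called lower with AF154. That count was 0 with a mean of 1 TPM or more, with 10 TPM in every library, with no filter, without the line block and with the KD pair, and between 0 and 1 when a line was left out, being 0 without Y634F, Y643F, Y698F, Y750F or Y821F. Among ERK targets 1, FOSL1, was called higher with AF154 with coding transcripts only and without mitochondrial genes, against 0. With E, 10 ERK targets were called lower with a mean of 1 TPM or more, 10 with no filter and 1 with 10 TPM in every library, since the filter decides how many are tested. AXL with AF154 passed (adjusted p = 0.0415, limma) with median centring, and its adjusted p reached 0.905 without the line block.

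TPM keeps no depth, so the precision of low genes such as CCN2 is unknown. PAR, KO and each receptor variant are 1 line each, and a comparison between lines has no replicate.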
